A study of Hypsibius dujardini with 126 samples.

Results

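The transcripts described here are 105 of the 12746 transcript models of a time course of the tardigrade Hypsibius dujardini, sampled as single embryos. They were chosen by a rule on measured values: a mean under 1 CPM (counts per 1000000 transcript counts) at 0-9 h, and a mean that first reached 50 CPM in the last 10 h window of the course, 90-99 h. The rule used the window means of all embryos that passed a depth filter. The low start and the high last window are therefore properties of the choice and are given as description, with no test. The deposited values were raw read counts from CEL-Seq, in which the poly(A) RNA of each embryo is barcoded at its 3′ end, pooled and amplified linearly before sequencing.

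The course held 126 single whole embryos, raised at 20 °C and frozen one by one, and no agent or genotype separated them. Embryos with under 10% of the median total of transcript counts were left out by the rule, which kept 101 and removed 25. The windows 0-9, 10-19, 20-29, 30-39, 40-49, 50-59, 60-69, 70-79, 80-89 and 90-99 h kept 17, 13, 7, 9, 10, 10, 4, 9, 8 and 14 embryos. The 14 embryos of the last window held 131746 to 2026191 transcript counts each, with a median of 762342. Time tags count minutes after fertilization, while the growth protocol counts from the 2-cell stage, so hours are used as the tags give them. Embryo numbers pass through the late part of the course in separate runs: embryos 1-25 hold 4 of the 14 last-window embryos (92, 95, 97 and 98 h) and embryos 26-78 hold the other 10 (each hour from 90 to 99 h). The labels call neither run a batch. No label ties an embryo to a mother or a clutch, so p-values measure only the spread between these embryos.

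Tardigrades develop directly, without a larva, and the animal that leaves the egg is a small version of the adult with its full set of legs. Late in embryonic life the segments are already laid down, and differentiation of tissues such as muscle, gut, nervous system, claws, cuticle and the piercing and sucking mouthparts takes place before hatching. Transcripts whose level climbs late in such a course can belong to any of these tissues, and the deposited table pairs no transcript ID with a gene name. The 105 transcripts are therefore described by ID and by their level over time, and no function is given to any of them. In RNA of whole embryos, more cells of a type and more RNA per cell cannot be told apart.

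Fewer transcripts crossed the same limits at 90-99 h than in any of the windows from 40 h to 89 h. Of transcripts with a mean under 1 CPM at 0-9 h, 1, 28, 14, 196, 293, 219, 213, 359 and 105 first reached a mean of 50 CPM in the windows starting at 10, 20, 30, 40, 50, 60, 70, 80 and 90 h. A further 70 transcripts first reached 50 CPM at 90-99 h and failed only the limit at the start, the lowest of them with a mean of 1.03 CPM at 0-9 h. The highest member mean at 0-9 h was 0.964 CPM, and 21 members had no count in any embryo of that window.

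Member means at 90-99 h ran from 50.3 to 427 CPM with a median of 69.7 CPM. The means of 38 members lay at 50 to 60 CPM, 47 at 60 to 100 CPM, 14 at 100 to 200 CPM and 6 at 200 CPM or above. The 10 highest members held 24.6% of the summed level of all 105. Most members were thus under 2 times the limit that chose them. The lowest members had means of 50.3 CPM (the fifth lowest, 51.1 CPM), and the highest transcripts kept out by this limit alone had 49.9 CPM (the fifth highest, 49.1 CPM).

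The label of this list, first on at 90-99 h, did not hold as a statement about onset. At 80-89 h all 105 members had a mean of at least 1 CPM, 103 had at least 10 CPM, 79 had at least 25 CPM and 39 had at least 40 CPM, with a median of 34.2 CPM. Before 80 h, 78 members had a window mean of at least 1 CPM, 50 of at least 10 CPM and 21 of at least 25 CPM, and 27 never reached 1 CPM. In embryos 26-78, 100 of the 105 members passed 50 CPM in at least 1 embryo before 90 h: 50 of them before 80 h, 15 first at 80-85 h and 35 first at 87-89 h. The remaining 5 first passed it at 90 h or later. Each crossing needs only 1 embryo and can rest on few counts, and no share of other transcripts is given. Kept embryo 58, at 79 h, had 76974 transcript counts, 33.2% of them on a single transcript, and counts for 24 members. HD_v1_tr_07935 had 169 CPM there from 13 counts. How many crossings rest on such embryos was not tested. On window means alone, all 105 members were at 1 CPM or more at 80-89 h. The list is therefore called by its rule: transcripts whose mean first reached 50 CPM at 90-99 h.

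**Figure D1:**
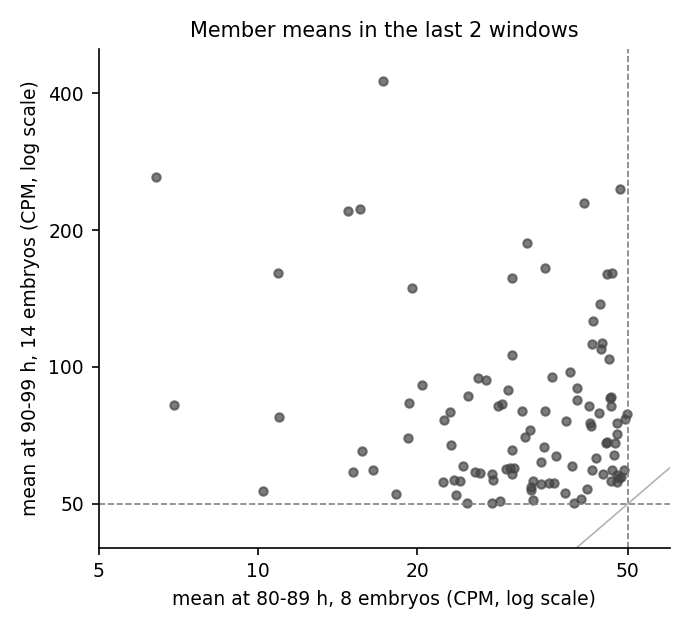
Mean level of each of the 105 members at 90-99 h (vertical axis, CPM, log scale, 14 embryos) against its mean at 80-89 h (horizontal axis, CPM, log scale, 8 embryos). Dashed lines mark the 50 CPM limit of the rule and the grey line marks equal means; 39 members sit between 40 and 50 CPM at 80-89 h, close to the limit.

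The mean of a member at 90-99 h over its mean at 80-89 h had a median of 2.20 and ran from 1.17 to 40.8. The ratio was under 2 for 45 members, of which 19 were under 1.5, from 2 to 4 for 43, and 4 or more for 17, of which 6 were at 10 or more. The highest member mean at 80-89 h was 49.8 CPM (the fifth highest, 48.3 CPM), and the lowest mean there among transcripts kept out only by that limit was 50.1 CPM (the fifth lowest, 51.3 CPM). The nearest list for comparison holds the 243 transcripts that first reached 50 CPM at 80-89 h and kept that mean at 90-99 h. The median of the 105 member means was 4.29 CPM at 70-79 h, 34.2 CPM at 80-89 h and 69.7 CPM at 90-99 h, against 10.1, 108 and 107 CPM for the comparison list. These values follow from the 2 rules and were not tested.

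The summed level of the 105 members climbed over the later windows of the course. The 17 embryos of 0-9 h averaged 24.6 ± 13.4 CPM (SD), the 9 of 30-39 h 82.4 ± 60.3 CPM, the 10 of 40-49 h 224 ± 108 CPM and the 10 of 50-59 h 423 ± 174 CPM. The 4 embryos of 60-69 h averaged 506 ± 91.3 CPM, the 9 of 70-79 h 1092 ± 684 CPM, the 8 of 80-89 h 3526 ± 2125 CPM and the 14 of 90-99 h 9275 ± 1295 CPM. The 14 last-window embryos ran from 7389 to 11376 CPM, and no kept embryo before 90 h was above 6469 CPM.

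**Figure D2:**
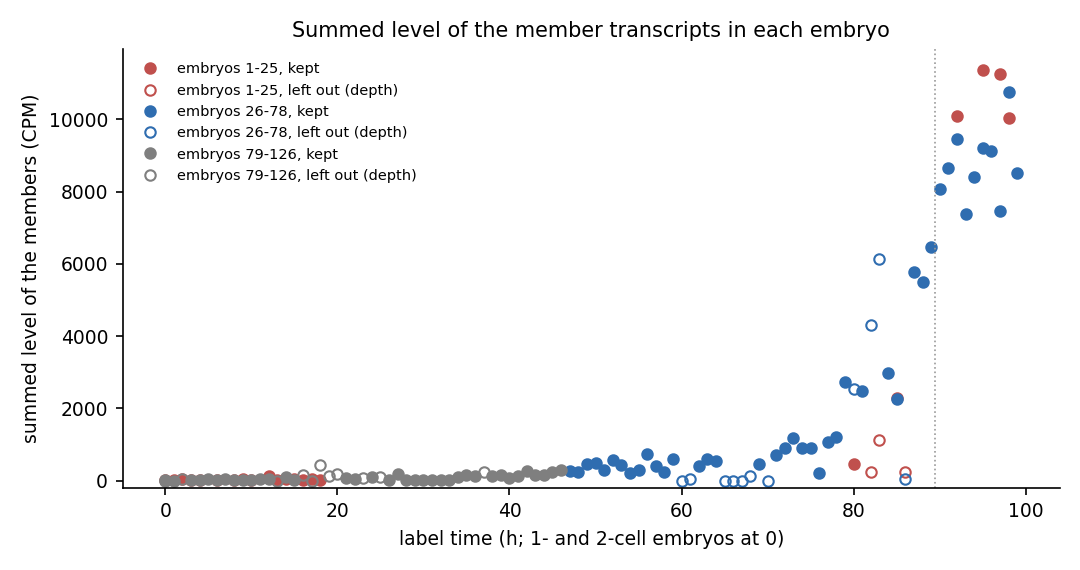
Summed level of the 105 members in each of the 126 embryos (vertical axis, CPM) against label time (horizontal axis, hours). Filled points are the 101 kept embryos and open points the 25 left out for depth, coloured by run of embryo numbers; the dotted line marks the start of the last window, and the kept embryos at 87, 88 and 89 h lie between 5493 and 6469 CPM.

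Read hour by hour, the kept embryos had a higher summed level at 87-89 h than at 81-85 h, before the last window opened. Within embryos 26-78 the summed level was 2495, 2975 and 2261 CPM at 81, 84 and 85 h, and 5785, 5493 and 6469 CPM at 87, 88 and 89 h. The embryos of 80, 82, 83 and 86 h in this run were left out for depth and had 2528, 4305, 6139 and 43.2 CPM. In CPM the value at 83 h lay above those at 87 and 88 h. That embryo had 59293 transcript counts, 44.4% of them on a single transcript, and counts for 17 members. Per 1000 counts of spike-in RNA, described below, it had 1.88 member counts, against 39.6 and 32.6 at 87 and 88 h. From 90 to 93 h the summed level averaged 8398 ± 879 CPM (SD, n = 4), from 94 to 96 h 8921 ± 441 CPM (n = 3), and from 97 to 99 h 8915 ± 1689 CPM (n = 3). The embryos of 90-93 h and of 97-99 h overlapped in summed level. The 80-89 h mean thus pooled embryos of unlike levels: 16 members averaged 50 CPM or more at 81-85 h, 59 at 87-89 h and 84 at 90-93 h. At 87, 88 and 89 h, 98, 99 and 101 of the 105 members had counts.

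In embryos 1-25, with fewer embryos, the last window was above the window before. The rule used these embryos in both window means, so this difference follows in part from the choice and was not tested. The summed level was 10084, 11376, 11250 and 10043 CPM at 92, 95, 97 and 98 h, against 452 and 2275 CPM at 80 and 85 h. Embryo 17, at 80 h, had 51.3% of its transcript counts on a single transcript. Relative to spike-in RNA, which is added in known amount and does not depend on the other transcripts, members had 12.4 to 111 counts per 1000 spike-in counts at 90-99 h and 0.121 and 10.2 in the embryos of 80 and 85 h. In embryos 26-78 they had 8.67 to 17.6 counts per 1000 spike-in counts at 81-85 h, 32.6 to 39.6 at 87-89 h and 4.30 to 63.6 at 90-99 h. The lowest value of each run at 90-99 h came from its 97 h embryo, and without those 2 embryos the ranges at 90-99 h were 77.9 to 111 in embryos 1-25 and 36.5 to 63.6 in embryos 26-78.

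The 2 embryos of 97 h stood apart from the rest of the last window. Embryo 24 had 200536 transcript counts, 10.4% of them on a single transcript, and embryo 76 had 131746, with 27.4% on a single transcript. The ratio of transcript to spike-in counts was 1.10 in embryo 24 and 0.576 in embryo 76, against 7.76 to 11.0 in the other 3 embryos of embryos 1-25 and 4.28 to 6.71 in the other 9 of embryos 26-78. In them 45 and 25 members had counts, against 93 to 101 and 77 to 102 in the others of the same run. Yet their summed levels, 11250 and 7461 CPM, lay within the ranges of the other embryos of their runs, so fewer members carried a like sum. Their part in the results below was not tested beyond the fits that left them out.

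Members differed in how evenly the 14 last-window embryos carried them. A member had counts in 5 to 14 of these embryos, with a median of 12: 8 members in all 14, 61 in at least 12, 42 in 7 to 11 and 2 in fewer than 7. The embryo with the highest level supplied a median of 21.1% of a member's summed CPM over the window (12.4 to 73.5%), over 30% for 20 members and over 50% for 4. The coefficient of variation between embryos had a median of 0.897 over the 105 members, against 0.171 from counting error. In the 13 embryos with over 200000 counts the medians were 0.811 and 0.152. These embryos differ in hour, so their spread holds change over time as well as differences between embryos. Membership moved with the embryos used: once every embryo in which 1 transcript took more than 10% of the counts was left out, the rule gave 93 transcripts, 69 of them among the 105, and with medians in place of means 120, of which 59 were among the 105. Leaving out embryo 22, 23, 24 or 25 gave 106 to 112 transcripts that held 99 to 102 of the 105.

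Whether the separately numbered embryos held the members at like levels was asked within 90-99 h, since the rule used the mean over both runs and not their difference. The mean was higher in embryos 1-25 (n = 4) than in embryos 26-78 (n = 10) for 53 members and lower for 52, with a median ratio of 1.01 and a range of 0.0893 to 7.24. The ratio lay within 2-fold for 76 members, at 2-fold or more above 1 for 15 and at 2-fold or more below it for 14. Means of 50 CPM or more occurred in both runs for 65 members, in embryos 1-25 alone for 13 and in embryos 26-78 alone for 27. In edgeR's quasi-likelihood test with a term for the hour, 0 members were higher and 0 lower in embryos 1-25 at a Benjamini-Hochberg adjusted p under 0.05, against 0.1% and 0.0251% of all 7961 transcripts tested. At an unadjusted p under 0.05, 4 members were higher and 1 lower, against 4.12% and 2.79% of all. DESeq2 and limma also called 0 members in either direction. With 4 embryos in 1 run the single-member ratios are loose, and a missed threshold does not show equal levels.

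A stricter reading picked the list without embryos 1-25 and looked at it in them. Applied to embryos 26-126 alone, the rule gave 82 transcripts, of which 58 were among the 105; these are 70.7% of the 82 and 55.2% of the 105. Of the 82, 80 passed the filter on low counts in the 22 kept embryos of embryos 1-25. At 90-98 h (n = 4) 77 of the 80 were higher than at 0-18 h (n = 16) by edgeR's quasi-likelihood test at an adjusted p under 0.05, and 0 were lower, against 24.3% of all 11200 transcripts called higher. Most of the list picked in other embryos was thus higher late than early in embryos it was not picked from.

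The step from the window before was much less firm there. At 90-98 h (n = 4) against 80-86 h (n = 2), 5 of the 80 were called higher and 0 lower, against 1.93% of all 11200 called higher, and 34 were higher at an unadjusted p under 0.05. The earlier group was embryo 17, described above, and embryo 20 at 85 h with 259319 counts. The median log2 difference over all transcripts tested was 2.93, so this contrast was shifted as a whole and gives no firm reading of single transcripts. The count of 5 became 12 without embryo 24, 3 without embryo 23, 2 with DESeq2 and 43 with limma on log2 CPM. No shares over all transcripts stand beside these counts or the 34, so they are not read as results about the list.

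**Figure D3:**
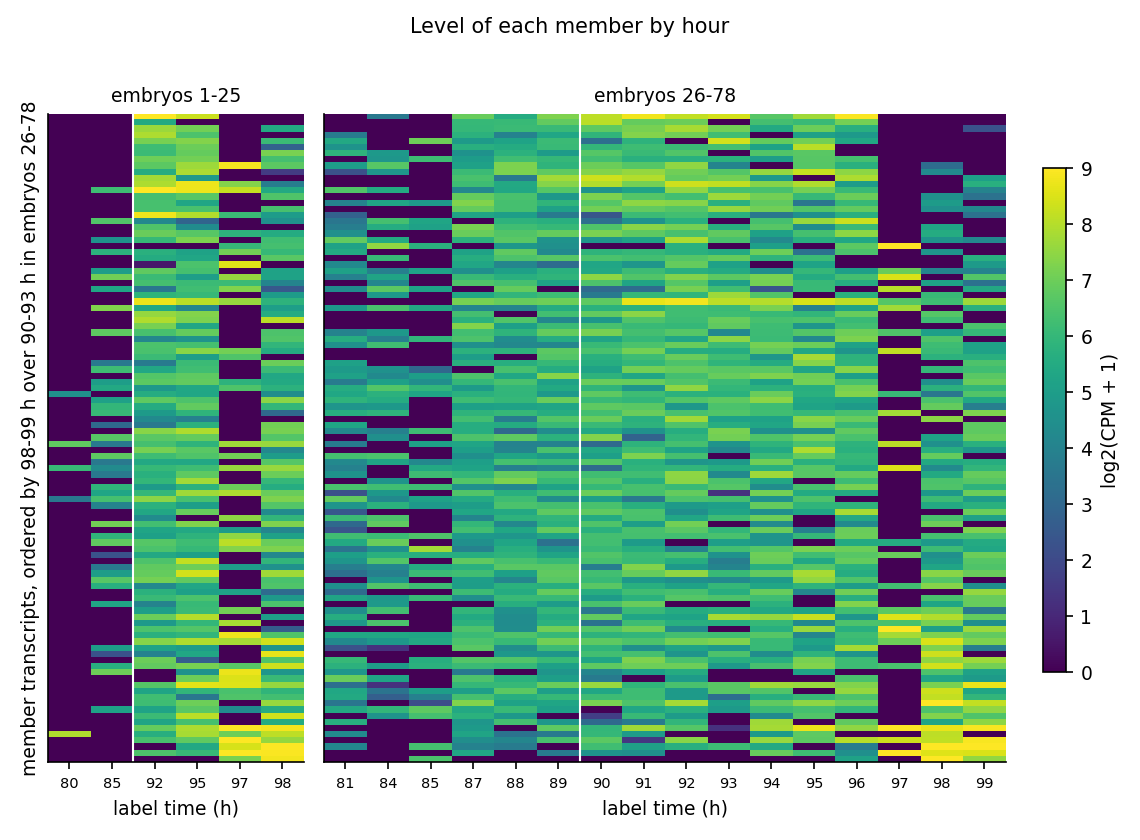
Level of each of the 105 members (rows) in each kept embryo from 80 h on (columns, labelled by hour), as log2(CPM + 1), with embryos 1-25 on the left and embryos 26-78 on the right. Rows run from members higher at 90-93 h (top) to members higher at 98-99 h (bottom) in embryos 26-78; white lines mark 90 h, and the 2 columns at 97 h are mostly empty, with counts for 45 and 25 members.

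The members had their highest levels at different hours of the last 10 h, which is given as description and was not tested. Each member was placed by the kept embryo of embryos 26-78 in which its level was highest from 80 h on. It was of 81-85 h for 4 members, 87-89 h for 2, 90-93 h for 30, 94-96 h for 33 and 97-99 h for 36. Each placement rests on 1 embryo, and other transcripts were not placed beside the members. The rule held down the 80-89 h means, so the few placements before 90 h follow in part from it. The number of members with a mean of 50 CPM or more was 84 at 90-93 h, 82 at 94-96 h and 48 at 97-99 h, while the summed level stayed in the range given above. Members without a count numbered 1 over the embryos of 90-93 h, 0 over those of 94-96 h and 8 over those of 97-99 h. The 3 embryos of 97-99 h include embryo 76, with 131746 transcript counts. In it only 25 members had counts, and 14 members had their highest level there. Its part in the values of 97-99 h was not tested.

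The change per hour within 90-99 h was tested for all transcripts over the 14 embryos, with a term for the run. One member rose and 0 fell of 105 by edgeR's quasi-likelihood test at an adjusted p under 0.05, against 0.276% rising and 0.0126% falling of all 7961 tested. At an unadjusted p under 0.05, 5 members were on the rising side and 10 on the falling side, against 1.97% and 4.94% of all. The median change was -0.07 log2 per hour over the members and -0.08 over all transcripts; it was -0.02 and -0.05 without embryos 24 and 76, and -0.21 and -0.14 with limma on log2 CPM. DESeq2 called 0 members in both directions, and limma on log2 CPM called 0 rising and 2 falling.

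A coarser order could be compared between runs. With 5 CPM added to each mean, members were put in classes by the level at 98-99 h (2 embryos) over that at 90-93 h (4 embryos) in embryos 26-78: 20 were higher by 2-fold or more at the later hours (19.0%), 33 were lower by 2-fold or more (31.4%), and 52 lay between. The shares were 14.3% and 21.6% of the 2499 other transcripts with a 90-99 h mean of at least 50 CPM, and 15.2% and 21.4% of the comparison list; the differences were not tested. The 2 embryos of the other run nearest to these hours, embryo 25 at 98 h and embryo 22 at 92 h, then gave a separate reading of the same members. Of the 20 later members, 18 were higher at 98 h than at 92 h in embryos 1-25, or 90.0%, against 71.7% of the 357 other transcripts in that class. Of the 33 earlier members, 26 were lower at 98 h, or 78.8%, against 70.9% of 540 other transcripts. The median log2 difference in embryos 1-25 was 1.41 for the later members and -1.35 for the earlier ones. The classes were added after the data had been seen. With 1 embryo at each hour in embryos 1-25 the counts are a description, and their distance from the other transcripts' shares was not tested.

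**Figure D4:**
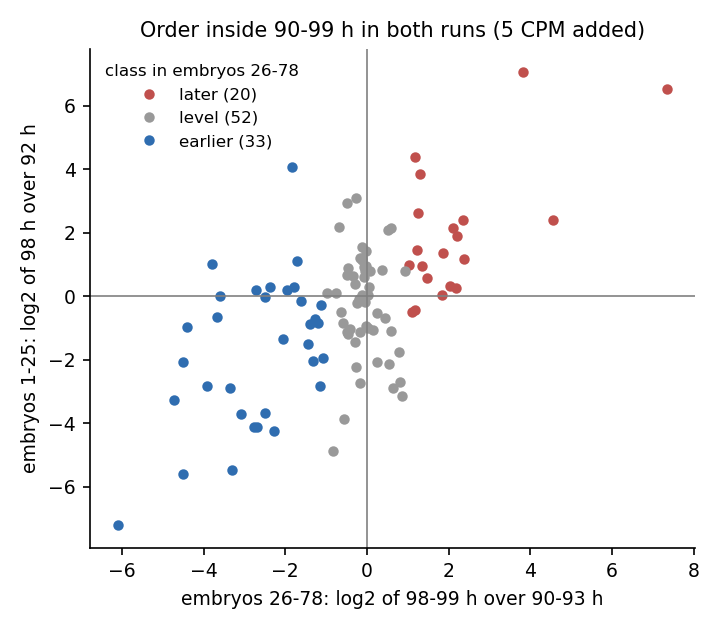
Change inside the last window for each of the 105 members: log2 of the level at 98 h over 92 h in embryos 1-25 (vertical axis, 1 embryo at each hour) against log2 of the mean at 98-99 h over 90-93 h in embryos 26-78 (horizontal axis), with 5 CPM added. Colours give the classes set in embryos 26-78; 18 of the 20 later members lie above 0 on the vertical axis and 26 of the 33 earlier ones below it.

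The levels of single transcripts are given for those with the highest means and for those with the smallest p among negative hourly changes, whose direction is fixed by that choice. HD_v1_tr_03449 had the highest mean of the list. In embryos 1-25 it had 116, 239, 1845 and 452 CPM at 92, 95, 97 and 98 h. In the 10 embryos of embryos 26-78 at 90-99 h its lowest, median and highest levels were 1.44, 216 and 1230 CPM, and the highest was embryo 76 at 97 h. At 98 and 99 h it had 414 and 478 CPM, against 60.8, 211, 97.5 and 1.44 CPM at 90, 91, 92 and 93 h, so these hours did not overlap. It had no count in the embryos of 81-85 h or 70-79 h in embryos 26-78, and 2 of the 3 embryos of 87-89 h had counts. Over both runs it averaged 427 ± 509 CPM at 90-99 h (SD, n = 14) and 17.2 ± 38.2 CPM at 80-89 h (n = 8). Its hourly change was 0.35 log2 (SE 0.13), with an edgeR adjusted p of 0.413, past no threshold.

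The highest values of HD_v1_tr_03449 came from the 2 embryos of 97 h, whose totals were small. Per 1000 spike-in counts it had 2.03 in embryo 24, against 1.28, 2.26 and 3.51 in embryos 22, 23 and 25. Embryo 76 had 0.708 per 1000 spike-in counts, against 0.00811 to 2.46 in the other 9 embryos of its run. On this scale neither 97 h embryo was the highest of its run. Without embryos 24 and 76 its hourly change was 0.26 log2 (edgeR adjusted p = 0.672).

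HD_v1_tr_11474 had the second highest mean among the members seen in at least 50% of the last-window embryos of each run. Its levels in embryos 1-25 were 88.3, 65.6, 1122 and 491 CPM at 92, 95, 97 and 98 h. In embryos 26-78 the lowest, median and highest levels at 90-99 h were 0, 48.0 and 896 CPM, with the highest again in embryo 76. The embryos of 98 and 99 h had 379 and 361 CPM, against 22.8, 21.3, 0 and 0 CPM at 90 to 93 h, with no overlap. Its mean was 261 ± 356 CPM at 90-99 h (SD, n = 14) and 6.41 ± 13.8 CPM at 80-89 h (n = 8), the lowest 80-89 h mean on the list. The hourly change was 0.59 log2 (SE 0.16), with an edgeR adjusted p of 0.152. Without the filter on low counts the adjusted p was 0.0424. Without embryos 24 and 76 the hourly change was 0.49 log2, with an adjusted p of 0.277.

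Neither of the 2 members chosen for a negative hourly change passed the threshold in the edgeR test. HD_v1_tr_04822 had 239, 89.6, 0 and 0 CPM in embryos 1-25 at 92, 95, 97 and 98 h. In embryos 26-78 its lowest, median and highest levels at 90-99 h were 0, 31.3 and 161 CPM. It had no count at 97, 98 or 99 h in that run, against 58.6, 161, 136 and 74.9 CPM at 90 to 93 h. A count of 0 at 98 h in embryo 77 allows a level of up to 8.11 CPM (3 counts), and in embryo 25 up to 1.98 CPM. Over both runs it averaged 58.7 ± 74.7 CPM at 90-99 h (SD, n = 14) and 15.1 ± 20.9 CPM at 80-89 h (n = 8). The hourly change was -1.0 log2 (SE 0.27), with an edgeR adjusted p of 0.135. The adjusted p was 0.0457 with limma on log2 CPM and 0.0449 with no filter on low counts.

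HD_v1_tr_07935 had a like course in both runs. In embryos 1-25 it had 199, 134, 0 and 43.0 CPM at 92, 95, 97 and 98 h. In embryos 26-78 the lowest, median and highest levels at 90-99 h were 0, 79.0 and 228 CPM: no count at 97 or 98 h and 3.84 CPM at 99 h, against 107, 140, 228 and 134 CPM at 90 to 93 h. It was already at 63.3 to 68.8 CPM at 87-89 h, and no kept embryo of 81-85 h had a count. Embryo 58 of the same run, at 79 h, had 169 CPM from 13 counts, and the other 8 kept embryos of 70-79 h had none. Its mean was 86.3 ± 76.5 CPM at 90-99 h (SD, n = 14) and 24.9 ± 34.5 CPM at 80-89 h (n = 8). The hourly change was -0.62 log2 (SE 0.21), with an edgeR adjusted p of 0.324.

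HD_v1_tr_06965, the single member past the threshold of the hourly test, is named after its values were seen. It had 0, 0, 145 and 454 CPM in embryos 1-25 at 92, 95, 97 and 98 h. In embryos 26-78 it had no count in any embryo from 90 to 95 h, then 35.4, 0, 1436 and 184 CPM at 96, 97, 98 and 99 h. Counts were thus confined to embryos of 96 h or later within the last window, 5 of 14 in all, and 63.7% of its summed level came from embryo 77 at 98 h. It was not limited to those hours in the course as a whole. Embryo 64 at 85 h had 87.4 CPM from 25 counts, and embryo 54 at 75 h had 68.0 CPM from 111 counts. Embryos of 72 and 77 h had 6.00 and 7.91 CPM. Its window means were 5.81, 5.99 and 0 CPM at 40-49, 50-59 and 60-69 h. Its mean was 161 ± 388 CPM at 90-99 h (SD, n = 14) and 10.9 ± 30.9 CPM at 80-89 h (n = 8). The hourly change was 2.32 log2 (SE 0.27), with an edgeR adjusted p of 6.95e-05. Without embryos 24 and 76 it was 2.45 log2, with an adjusted p of 0.000251. The call was lost with DESeq2 (0.99 log2 per hour, adjusted p = 0.513), with limma on log2 CPM (0.90, adjusted p = 0.0654) and with 95-99 h set against 90-94 h (adjusted p = 0.119).

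**Figure D5:**
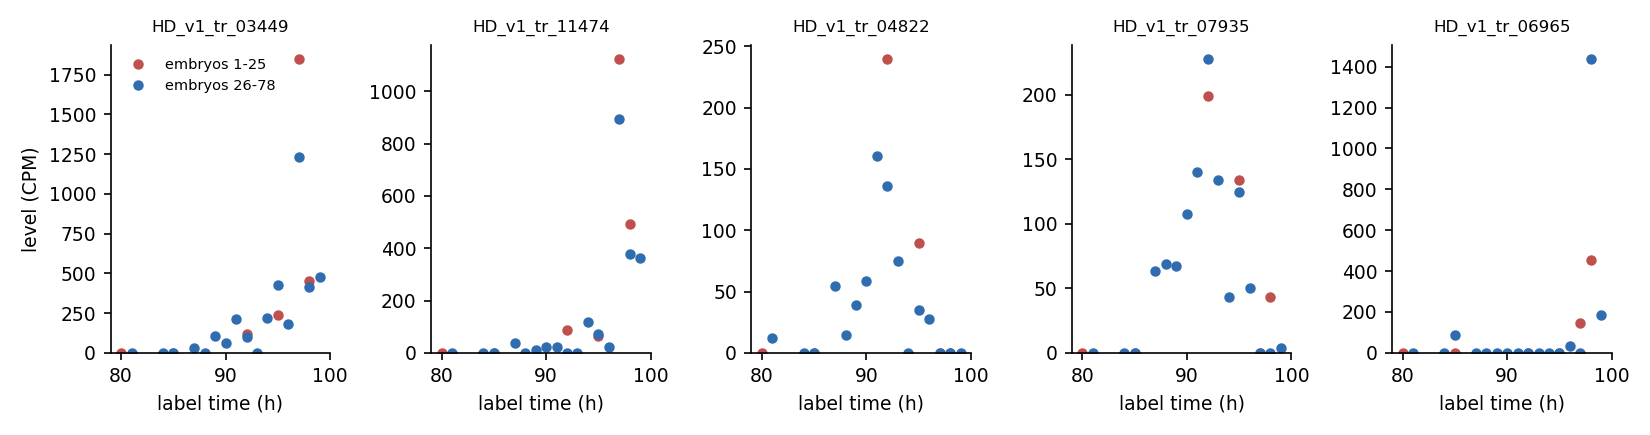
Level (vertical axis, CPM) against label time (horizontal axis, hours) for 5 members, in each kept embryo from 80 h on, coloured by run of embryo numbers. The first, second and last panels have their highest points at 97 or 98 h; in the other panels the highest points, 239 and 228 CPM, are at 92 h.

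The hours just before the last window were then looked at by themselves, a fit chosen after the data had been seen. In the 6 kept embryos of embryos 26-78 at 81-89 h, 104 of the 105 members passed the filter on low counts and 0 rose or fell with the hour by edgeR's quasi-likelihood test at an adjusted p under 0.05, against 0.148% of all 8135 transcripts called rising. At an unadjusted p under 0.05, 22 members were on the rising side and 0 on the falling side, against 5.22% and 2.05% of all. The hourly change was positive for 85 of the 104 members, with a median of 0.22 log2 per hour, against 0.02 over all transcripts tested. Without embryo 60, at 81 h, the medians were 0.48 for the members and 0.12 for all transcripts. The rule had used the mean of these embryos as an upper limit and not their order. At an unadjusted p under 0.05, DESeq2 had 6 members on the rising side and limma on log2 CPM had 22, and neither called a member at an adjusted p under 0.05. Shares over all transcripts are given for edgeR alone, so the counts of the other 2 methods do not show whether members differed from the rest.

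The embryos left out for depth at 80-89 h had played no part in choosing the members. These 7 embryos had 23135 to 59340 transcript counts, and a single transcript took 38.3 to 64.5% of them. Their pooled member level was 2231 CPM (exact Poisson 95% interval 2073 to 2398 CPM, counting error only), against 4488 CPM in the 8 kept embryos of the same window. The 2 sets differ in hour. All 7 left-out embryos were of 80-86 h, while the kept ones include 3 of 87-89 h with 5493 to 6469 CPM. The kept embryos of 81-85 h in embryos 26-78 had 2261 to 2975 CPM, and those of 80 and 85 h in embryos 1-25 had 452 and 2275 CPM. Single left-out embryos ran from 43.2 to 6139 CPM with a median of 1112 CPM, and 49 of the 105 members had a count in at least 1 of them. The pooled value thus averages embryos that differ far more than counting error allows.

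Some members may not be separate transcripts. The counts of 7 pairs of members correlated at a Pearson r of 0.98 or more over the 22 kept embryos from 80 h on. Of these, 4 were among the 9 pairs with ID numbers at most 3 apart, and their totals were 0.786 to 4.83% apart. The other 3 pairs had distant ID numbers and totals 0.665, 2.94 and 51.5% apart. Over all transcripts with at least 300 counts in those embryos, 1.70% of 8584 such near pairs did so. These correlations are descriptions over embryos that share depth and hour. No sequences were compared, and how reads were divided between models of like sequence is not given in the sources used here. On their counts alone the 7 pairs are uncertain as separate members, and for the 3 with distant ID numbers the correlation is the only link seen.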

How the data were processed

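RNA of 126 single embryos was measured by CEL-Seq. The values the authors deposited are whole-number read counts for each transcript model, without normalization. The submitters' processing notes name CASAVA 1.8, Bowtie2 2.1.0 and HTSeq 0.5.4p3. Genome build and annotation were not given in the sources used here. In all, the table holds 12746 transcript models, 92 spike-ins and 5 summary rows; spike-ins and summary rows entered neither library sizes nor tests. Reads that fell outside the models took a median of 6.64% and unaligned reads 47.8% of all reads per embryo. Totals ran from 2347 to 4972036 counts (median 634044.5). The counts carry no molecular identifiers, and intervals and floors (3 counts) cover counting error only.

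CPM is a transcript's count per 1000000 transcript counts. Embryos were grouped by label time into 10 h windows, with 1- and 2-cell embryos in the first. The members and lists were chosen with earlier results of these data known. Tests were fitted to all transcripts with edgeR 4.0.16 (R 4.3.3): TMM, the default filter on low counts, trended dispersion, quasi-likelihood F-test, Benjamini-Hochberg adjustment, threshold 0.05. The SE of an edgeR change is its absolute value over the square root of the test's F statistic, so it restates the test. The steps were tested on simulated counts. Named IDs were the 2 members with the highest 90-99 h mean seen in at least 50% of last-window embryos of each run, and the 2 with the smallest p among negative hourly changes. Alternatives were RLE factors, DESeq2 1.42.0, limma 3.58.1 on log2 CPM (prior count 2), no filter on low counts, other limits and windows for the rule, other terms and embryo sets, and leaving out embryos; those for 80-89 h, for the order inside 90-99 h and the spike-in scale were added after the data had been seen. Other steps ran in Python 3.11.15 with pandas 2.3.3, numpy 2.4.6 and scipy 1.17.1, and figures were drawn with matplotlib 3.10.9.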

Additional observations from a re-analysis of the deposited data

Results flagged for a closer look

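In 20 groups of 4 to 10 embryos checked for a single value far from the rest, 6 were picked out. The check picks out about 1 in 20 where groups are independent and values spread evenly around a mean. These groups share embryos, and some hold transcripts chosen by their values, so the 6 cannot be set against that rate. The number of members with counts at 90-99 h was 45 in embryo 24, against 93 to 101 in the other 3 embryos of embryos 1-25. It was 25 in embryo 76, against 77 to 102 in the other 9 of embryos 26-78. HD_v1_tr_03449 had 1230 CPM in embryo 76, against 1.44 to 478 CPM in the other 9, and HD_v1_tr_11474 had 896 CPM there, against 0 to 379 CPM. HD_v1_tr_06965 had 1436 CPM in embryo 77, against 0 to 184 CPM in the other 9. The summed level of the members was 2741 CPM in embryo 58 at 79 h, against 224 to 1199 CPM in the other 8 kept embryos of 70-79 h.

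Member counts also appeared in embryos that the comparisons did not use. In the 7 embryos left out at 80-89 h the members had a pooled level of 2231 CPM, against 4488 CPM in the 8 kept ones. These left-out embryos were all of 80-86 h, while the kept ones include those of 87-89 h, so the sets differ in hour. At 60-69 h and 70-79 h the left-out embryos were lower: the 6 of 60-69 h had a pooled 32.7 CPM from 4 counts, against 497 CPM in the kept ones, and the single one of 70-79 h had no member count, against 949 CPM in the kept ones.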

How the results depend on the processing

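The rule gave 60 transcripts with a limit of 100 CPM, 20 of them among the 105, and 174 with no depth filter, 91 of them among the 105. Its count stayed within 1.5 times of 105 in the other 14 of 16 alternatives, but its content did not: 123 transcripts at 25 CPM held 23 of the 105, and 94 with pooled CPM held 60. Members rising per hour within 90-99 h, 1 in the test as designed, numbered 2 with no filter on low counts and 0 with DESeq2, with limma and with 95-99 h set against 90-94 h. Members falling numbered 2 with limma and 1 with no filter. Over all transcripts, rising calls ran from 0 to 53 (22 as designed) and falling calls from 0 to 12 (1 as designed); 12 rose without embryo 25, and 2 rose and 0 fell in embryos 26-78 alone. For the run, calls over all transcripts ran from 5 to 51 higher (8 as designed) and from 0 to 18 lower (2 as designed), and members stayed at 0. Transcripts of the rule in embryos 26-126 called higher at 90-98 h than at 80-86 h, 5 as designed, numbered 3 with RLE factors, 2 with DESeq2, 43 with limma, 3 with 0-9 h as the early group, and 3 to 12 with each 90-99 h embryo left out. At 80-89 h, 22 members were on the rising side at an unadjusted p under 0.05, and 6 with DESeq2. No shares over all transcripts stand beside these alternative counts for 80-86 h and 80-89 h, so they describe the dependence on processing only. The hourly changes of the named transcripts kept their sign in all 60 alternatives computed for them. The other alternatives were counts and summed levels, which have no sign to change. Of all 227 alternatives, 42 moved: a count by more than 1.5 times, or a summed level by at least 1 SD, from the value as designed. The causes of these moves were not tested. The labels give no replicate numbers that pair embryos, so no pairing was fitted; hour was a term in the run comparison. Within 90-99 h, depth limits embryos 24 and 76 most: 3 counts there are 15.0 and 22.8 CPM. Among earlier kept embryos, 3 counts are 33.1 CPM in embryo 17 and 39.0 CPM in embryo 58.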
